A study of Homo sapiens with 9 samples.

Results

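The SLC25 genes encode the mitochondrial carrier family, and their messenger RNAs were measured in 9 libraries of Hap1 cells. Members were the protein-coding genes named SLC25A followed by a number, which gave 48 genes of the 78894 gene entries in the deposited tables. Hap1 is a near-haploid human leukaemia line that grows attached to plastic. SARS2 is the gene of the seryl-tRNA synthetase of mitochondria, which charges mitochondrial tRNAs with serine. In all 3 groups the cell's own SARS2 had been deleted (∆SARS2) and a doxycycline-inducible SARS2-1xFLAG copy added, which was kept off by growth without dox for 6 days. The groups differed in a constitutive SARS2+int14-myc copy, which was WT, R227Q or H448L, with 3 libraries each. The labels do not say whether a group was 1 clone or what int14 is, nor whether its libraries came from separate cultures. The spread behind the p-values is thus that between libraries of a group, and it may be technical.

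Mitochondrial carriers sit in the inner membrane and exchange metabolites, nucleotides, phosphate, cofactors and ions between the cytosol and the matrix. Each is a small bundle of membrane-spanning helices built from repeats of 1 module, and it alternates between a state open to the cytosol and a state open to the matrix. They are encoded in the nucleus, made in the cytosol and inserted through the TOM pore, the small TIM chaperones and the TIM22 complex. ADP/ATP carriers export the ATP made by oxidative phosphorylation, the phosphate carrier supplies its phosphate, and aspartate-glutamate carriers drive the malate-aspartate shuttle. Serine enters mitochondria by other proteins, the sideroflexins, but SLC25 carriers move its one-carbon partners, which are glycine, folate and S-adenosylmethionine.

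Total counts were 9900892 to 12991050 per library, and the carriers took 0.364% to 0.448% of them, both entries of SLC25A6 included. Column names place WT 1, WT 2 and R227Q 1 in a submission to the sequencing service named SDKYMR, and WT 3, R227Q 2, R227Q 3 and the H448L libraries in another, 4LJFHN. Counts of libraries from 1 group differed by 19.8 to 21 times sampling noise between submissions and by 1.47 to 2.36 times within one (chi-square per degree of freedom), so the models had a term for it, other than alternatives named as without one or run in 1 submission. Since SDKYMR holds no H448L library, H448L was compared with WT through WT 3 and through the submission difference seen in WT and R227Q. SARS2 itself was read at 6.20 to 8.54 CPM (counts scaled to a library total of 1000000) in WT, 7.09 to 8.68 in R227Q and 7.88 to 8.68 in H448L, and neither variant differed from WT by the test (edgeR adjusted p = 0.38 and 0.29). These reads do not tell the copies apart. Of the haematopoietic markers, the summed level was 1.18 to 1.56 CPM in SDKYMR and 92.4 to 134.8 CPM in 4LJFHN, nearly all from the globin genes HBG1, HBG2 and HBE1. That sum moved with the submission. Within 4LJFHN it was 107.1 CPM in WT 3, 107.9 and 92.4 in R227Q 2 and 3 and 106.6 to 134.8 in H448L, and its part in the results was not tested. The defining blood cell markers PTPRC, CD34, SPI1 and GATA1 were at 0.799 CPM or less in all libraries of this leukaemia-derived line. Fibroblast markers summed to 18.9 to 23.7 CPM in SDKYMR and 51.1 to 63.8 in 4LJFHN, epithelial markers to 78.0 to 92.1 over all libraries, and endothelial markers to 2.22 at most. The fibroblast sum was nearly all COL1A1 (18.4 to 55.0 CPM) and COL1A2 (0.155 to 10.15), with DCN, LUM and PDGFRB at 0.891 or less. The epithelial sum was mostly KRT18 (69.6 to 83.5 CPM), with KRT8 at 5.58 to 8.75, EPCAM at 1.82 or less and CDH1 at 0.267 or less. The neuronal and embryonic kidney markers summed to 42.5 to 46.7 CPM in SDKYMR and 56.3 to 67.2 in 4LJFHN. Most of that sum was LHX1 (30.3 to 48.5 CPM) and PAX2 (10.7 to 15.6), with NEFL at 1.24 to 4.00 and NEFM at 0.844 or less.

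The carriers spanned a wide range of levels. Levels of different genes are compared as CPM per kilobase of the principal transcript, averaged over the 9 libraries, as drawn in the plot of levels by carrier. The division assumes reads from along the whole transcript. No source used here states this, and the ranks below depend on it. SLC25A5, the ADP/ATP carrier of dividing cells, was highest at 1102 (1039 to 1203 over libraries). The ADP/ATP carrier SLC25A6 followed at 374.3 (291.9 to 531.8) and the phosphate carrier SLC25A3 at 224.6 (192.3 to 271.2), and the ranges of these 3 genes did not overlap. SLC25A6 has 2 entries in the tables, for the X and Y copies of its pseudoautosomal gene, with the same count in both entries. Its CPM and its tests here are those of 1 entry, whereas its level per kilobase is the sum of both. Counts above 0 had a decimal part of 0.5 in 33.6% of values of the 52 genes with such paired entries, beside 14.8% in other protein-coding genes, and in 4 of 9 for SLC25A6. Whether each entry holds all of the reads or shares them with the other entry is not stated. With 1 entry its level would be 187.1 (145.9 to 265.9), below the mean of SLC25A3 and overlapping its range. The glutathione carrier SLC25A39 stood at 94.9, the citrate carrier SLC25A1 at 64.7 and the oxoglutarate carrier SLC25A11 at 48.9. From the rank of the glycine carrier SLC25A38 (31.3) and of SLC25A4 (26.6) downwards, the ranges of most neighbours overlapped. The lowest 5 were SLC25A2 (0.00639), the germ cell ADP/ATP carrier SLC25A31, SLC25A47, SLC25A21 and SLC25A18 (0.0507).

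**Figure D1:**
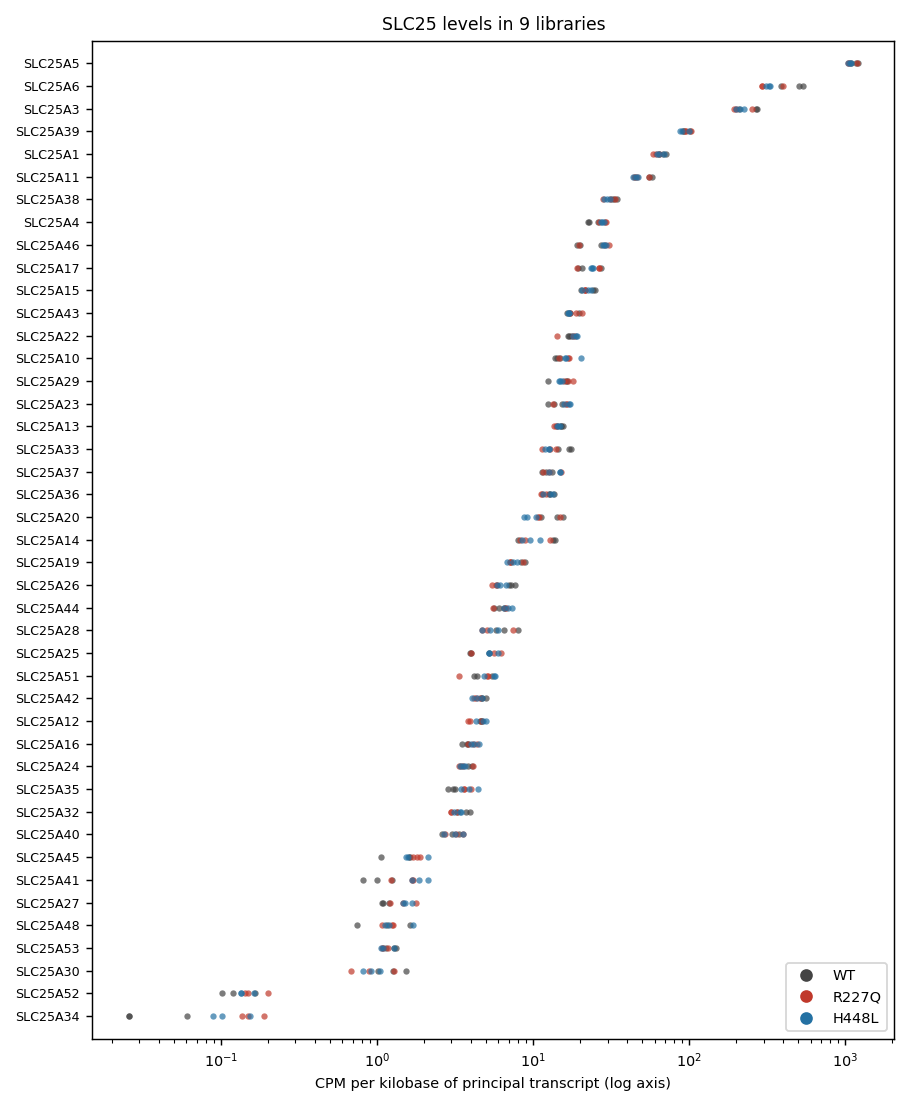
Level of each SLC25 gene with a count in all 9 libraries, as CPM per kilobase of principal transcript on a log axis, 1 point per library coloured by group. SLC25A5, SLC25A6 and SLC25A3 stand apart at the top, and SLC25A34 and SLC25A52 lie far below the rest.

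Of the 48 carriers, 41 had enough counts for the test and 7 did not. The ornithine carrier SLC25A2 had 0 to 1 count per library, SLC25A31 and SLC25A47 also 0 to 1, the oxodicarboxylate carrier SLC25A21 0 to 2 and the glutamate carrier SLC25A18 0 to 4. SLC25A52, a close copy of the NAD carrier SLC25A51, had estimated counts of 1.75 to 3, and 29.3% of its 50-base stretches also occur in other genes, most of them in SLC25A51. At 1 count for 0.0770 to 0.101 CPM, differences in these genes were not detectable at this depth. SLC25A34, a carrier related to the uncoupling proteins, had counts of 1, 1 and 2 in WT, 5, 5 and 7 in R227Q and 3, 5 and 3 in H448L. The WT counts lay below those of both variants. With every gene that had a count in the fit, its R227Q difference did not pass (log2 fold change 1.84, edgeR adjusted p = 0.13).

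The first comparison asked how the carriers differ when cells depend on R227Q. SLC25A6, SLC25A33, SLC25A26, SLC25A36, SLC25A1 and SLC25A38 were lower in R227Q than in WT, and SLC25A4 and SLC25A29 were higher. These 8 were 19.5% of the 41 carriers tested, and over all 16908 genes tested 17.4% passed the same threshold (edgeR's quasi-likelihood test, with p adjusted over all genes by Benjamini-Hochberg to under 0.05). The carriers are all protein-coding, and with protein-coding genes alone in the fit 7 of 41 carriers passed, beside 21.3% of those genes. The 6 lower carriers stand against a background of 9.91% of genes lower, and the 2 higher against 7.5% higher. The changes were small: the median log2 fold change was −0.03 over the carriers and 0.00 over all genes, and the median of its size without sign was 0.12 and 0.14. With upper-quartile factors 2 carriers were higher and 3 lower. Without WT 3, or without R227Q 1, 2 carriers passed, without WT 2 there were 5, and with no submission term there were 0.

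For H448L against WT, the carriers SLC25A6, SLC25A38, SLC25A33 and SLC25A17 were lower and 0 were higher. These 4 were 9.76% of the carriers tested, beside 7.97% of all genes, of which 4.99% were lower and 2.97% higher. With protein-coding genes alone in the fit the same 4 passed, beside 10% of those genes. The median log2 fold change was −0.01 over the carriers and 0.01 over all genes. Without WT 3, or without R227Q 1, 1 carrier passed, and with no submission term 0 did. Both comparisons use the same WT libraries.

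In H448L against R227Q, 0 of 41 carriers passed the edgeR test, 0 with DESeq2 and 0 with limma-voom, beside 0.207% of all genes with edgeR (0.0828% higher and 0.124% lower). Before adjustment, 5 carriers had a p under 0.05, 2 of them higher in H448L and 3 lower. The higher ones were SLC25A6 (log2 fold change 0.12 ± 0.04 (SE), 95% interval 0.04 to 0.20, edgeR adjusted p = 0.22) and SLC25A3 (0.10 ± 0.04, adjusted p = 0.36). The lower ones were SLC25A20, the carnitine-acylcarnitine carrier (−0.22 ± 0.09, adjusted p = 0.32), SLC25A17 (−0.15 ± 0.05, adjusted p = 0.26) and SLC25A4 (−0.09 ± 0.04, adjusted p = 0.45). So a carrier that passed against WT in 1 variant and not in the other was not shown to differ between the variants.

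**Figure D2:**
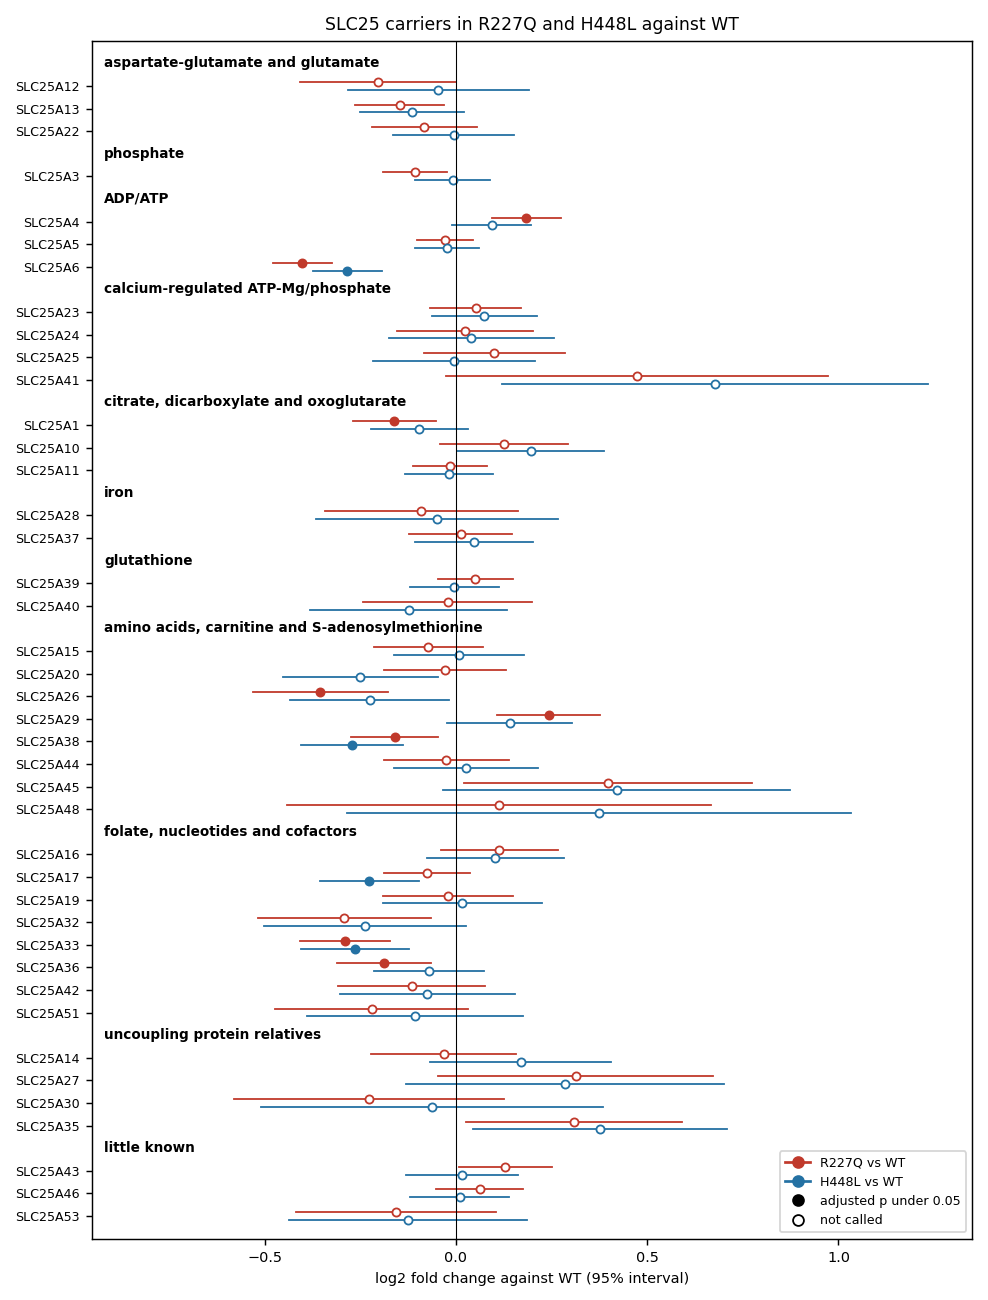
Log2 fold change against WT with its 95% interval for the 41 carriers tested, grouped by substrate, for R227Q (red) and H448L (blue), 3 libraries per group. Filled points passed the test at an adjusted p under 0.05, 8 for R227Q and 4 for H448L, and the filled points of SLC25A6 lie farthest to the left among those below 0 for each variant.

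Of the 3 ADP/ATP carriers tested, SLC25A6 was lower in both variants, SLC25A4 was higher in R227Q, and SLC25A5 passed in neither. SLC25A6 was read at 518, 548 and 399 CPM in WT 1 to 3, 409.8, 303 and 301 in R227Q 1 to 3, and 321, 339 and 333 in H448L 1 to 3. WT was higher than the variants within each submission, but R227Q 1 of SDKYMR lay above WT 3 of 4LJFHN, so the pooled R227Q and WT ranges overlapped. The R227Q level was 1.32-fold lower (log2 fold change −0.40 ± 0.04 (SE), n = 3 per group, edgeR adjusted p = 7.9e-09). The H448L level was 1.22-fold lower (−0.28 ± 0.04, edgeR adjusted p = 7.9e-05). In bulk RNA, fewer cells making a transcript and less of it per cell cannot be told apart. Taken alone, SDKYMR gave an R227Q difference of −0.39 in log2 CPM, and 4LJFHN gave −0.41 for R227Q and −0.29 for H448L. Both calls held without each library in turn (adjusted p up to 5.3e-05 for R227Q and 0.047 for H448L), and were lost with no submission term (log2 fold changes −0.56 and −0.62, adjusted p = 0.10 and 0.08). SLC25A6 lies on chromosome X, 1386152 to 1392724 on the minus strand of GRCh38. Of its 50-base stretches 0.861% also occur in the pseudogene SLC25A6P2, and the SLC25A6 pseudogenes together reached 0.0888 CPM at most.

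SLC25A4, the ADP/ATP carrier of heart and muscle, was read at 100.4, 101 and 115 CPM in WT, 117, 131 and 129 in R227Q, and 120.4, 126 and 123 in H448L. All variant libraries lay above all WT libraries, although R227Q 1 (117) and WT 3 (115) were close. How many of all genes separate by group in this way was not counted, for this carrier or for any other named here. The R227Q level was 1.14-fold higher (log2 fold change 0.18 ± 0.04 (SE), edgeR adjusted p = 0.0033), and the H448L difference did not pass (0.09 ± 0.05, adjusted p = 0.30). The R227Q call was lost without WT 3 (0.20, adjusted p = 0.058) or without R227Q 1 (0.17, adjusted p = 0.12). SLC25A5 was read at 1481, 1533 and 1378 CPM in WT, 1520, 1324 and 1336 in R227Q, and 1373, 1326 and 1366 in H448L. The submission set the order of these values, and the differences from WT were −0.03 ± 0.04 for R227Q and −0.02 ± 0.04 for H448L (edgeR adjusted p = 0.64 and 0.79). The 95% intervals were −0.10 to 0.04 and −0.11 to 0.06. SLC25A5 overlaps the antisense gene SLC25A5-AS1 by 699 bases, and the sources used here do not say whether counting used strand.

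Per kilobase, with both entries of SLC25A6 summed, SLC25A5 made up 68.4% to 72.4% of the summed SLC25A4, SLC25A5 and SLC25A6 transcripts in WT, 73.8% to 76.6% in R227Q and 74.5% to 76.1% in H448L. SLC25A6 made up 25.9% to 30.3% in WT, 21.3% to 24.6% in R227Q and 22.0% to 23.5% in H448L. SLC25A4 was 1.30% to 2.16% of the sum. With 1 entry the share of SLC25A6 would be 14.9% to 17.8% in WT, 11.9% to 14.02% in R227Q and 12.4% to 13.3% in H448L. The ratio of SLC25A6 to SLC25A4 was 22.2, 23.3 and 15.0 in WT 1 to 3, 15.1, 9.98 and 10.1 in R227Q 1 to 3, and 11.5, 11.5 and 11.7 in H448L 1 to 3. With 1 entry it would be 7.48 to 11.7 in WT, 4.99 to 7.55 in R227Q and 5.74 to 5.82 in H448L. R227Q 1 lay below both WT libraries of SDKYMR, and the other variant libraries lay below WT 3. These ratios share the numerator of the SLC25A6 test and are given without a test. The size of the shares and ratios also rests on the division by length, whereas the order of the ratios over libraries does not.

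**Figure D3:**
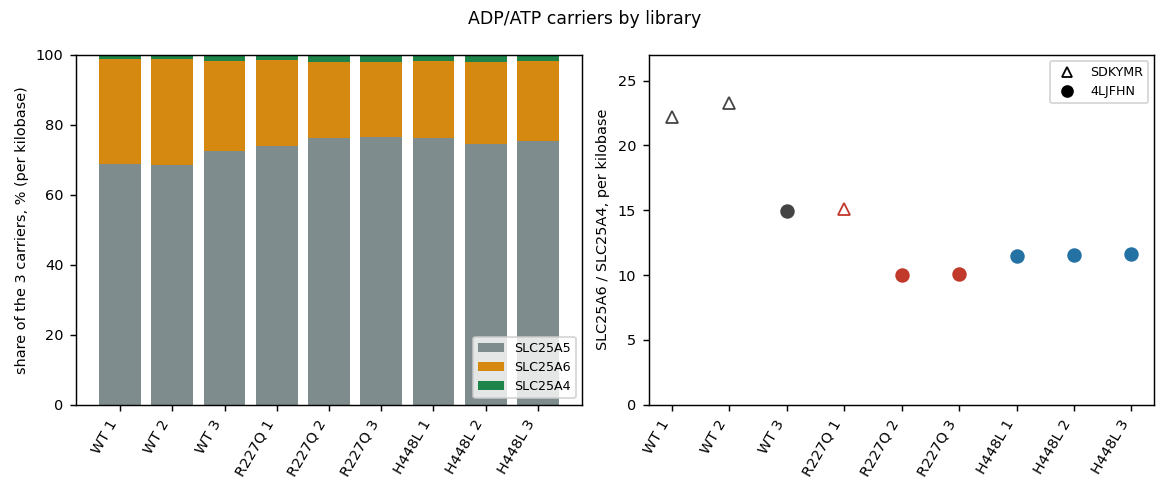
Left, share of SLC25A5, SLC25A6 and SLC25A4 in their summed level per kilobase in each library, in percent, with both entries of SLC25A6 added. Right, ratio of SLC25A6 to SLC25A4 per kilobase in each library, with open triangles for SDKYMR and filled circles for 4LJFHN: the variant libraries lie below WT within each submission, at 15.1 against 22.2 and 23.3, and at 9.98 to 11.7 against 15.0.

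Phosphate and the ATP-Mg exchange gave no call. SLC25A3, which brings phosphate for ATP synthesis and copper into the matrix, was read at 455, 449 and 349.8 CPM in WT, 422, 323 and 333 in R227Q, and 333, 352 and 377 in H448L. Its level followed the submission, with a log2 difference of −0.42 ± 0.04 for 4LJFHN against SDKYMR (edgeR adjusted p = 1e-09). The differences from WT were −0.11 ± 0.04 for R227Q (adjusted p = 0.072) and −0.01 ± 0.05 for H448L (adjusted p = 0.95). The former passed when H448L 3 was left out. Of the 4 calcium-regulated ATP-Mg/phosphate carriers, 0 passed in either variant, beside 17.4% of all genes in R227Q and 7.97% in H448L. Among them SLC25A41 was low, at 1.24 to 1.92 CPM in WT, 1.87 to 2.59 in R227Q and 2.58 to 3.23 in H448L. Its H448L values lay above all WT values, but the log2 fold change of 0.68 ± 0.27 did not pass (edgeR adjusted p = 0.13).

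Of the aspartate-glutamate and glutamate carriers, 3 of 4 were tested, and 0 passed in either variant. The share of all genes that passed was 17.4% in R227Q and 7.97% in H448L. SLC25A12 (aralar) and SLC25A13 (citrin) export aspartate in exchange for glutamate under calcium control, and SLC25A22 imports glutamate. SLC25A13 was read at 47.3, 47.5 and 48.4 CPM in WT, 42.8, 44.0 and 44.7 in R227Q, and 45.4, 46.9 and 44.5 in H448L. Every variant library lay below every WT library. The log2 fold changes were −0.15 ± 0.06 for R227Q (edgeR adjusted p = 0.071) and −0.11 ± 0.07 for H448L (adjusted p = 0.33). SLC25A12 was read at 13.7, 13.7 and 14.1 CPM in WT, 11.8, 13.8 and 11.4 in R227Q, and 12.9, 14.3 and 14.9 in H448L. All 3 groups overlapped, and the differences were −0.20 ± 0.10 (adjusted p = 0.17) and −0.05 ± 0.12 (adjusted p = 0.87). The annotated SLC25A12 gene overlaps HAT1 on the opposite strand by 61235 bases.

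SLC25A22 was read at 48.6, 47.1 and 47.4 CPM in WT, 39.9, 50.6 and 51.7 in R227Q, and 53.8, 50.4 and 52.5 in H448L. R227Q 1 was the lowest of the 9 libraries, and the other R227Q libraries lay above WT. The R227Q difference in log2 CPM was −0.27 in SDKYMR and 0.10 in 4LJFHN. A term for that discrepancy, added after the data were seen, gave 0.37 ± 0.12 (unadjusted p = 0.0041), the only 1 of 41 carriers under 0.05, and it failed the adjustment over all genes (edgeR adjusted p = 0.9992). The pooled R227Q difference of −0.08 ± 0.07 did not pass (edgeR adjusted p = 0.45), nor did that of H448L (−0.01 ± 0.08, adjusted p = 0.98).

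The serine-related carriers were SLC25A38, SLC25A26 and SLC25A32. Of these 3, 2 were lower in R227Q and 1 in H448L, and the median log2 fold change was −0.29 and −0.24, beside 0.00 and 0.01 over all genes. Over all genes 9.91% were lower in R227Q and 4.99% in H448L, and the 3 carriers are counted again with their substrate groups. SLC25A38 brings glycine, which is made from serine, into the matrix for haem synthesis. It was read at 71.1, 69.0 and 73.8 CPM in WT, 60.6, 66.5 and 72.0 in R227Q, and 66.8, 63.5 and 60.7 in H448L. H448L lay below all WT libraries, whereas R227Q 3 lay within the WT range. H448L was 1.21-fold lower (log2 fold change −0.27 ± 0.07 (SE), edgeR adjusted p = 0.0079), and that call was lost without WT 3 (−0.35, adjusted p = 0.074) or R227Q 1 (−0.23, adjusted p = 0.077). R227Q was 1.12-fold lower (−0.16 ± 0.06, edgeR adjusted p = 0.045), and that call was lost without WT 1, WT 2, WT 3, R227Q 1, R227Q 2 or H448L 2 (adjusted p = 0.059 to 0.51) and with DESeq2. It was also lost with upper-quartile factors (edgeR adjusted p = 0.092), every gene with a count (0.065), protein-coding genes alone (0.051), unrounded counts and another filter (both 0.05).

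SLC25A26 imports S-adenosylmethionine, the methyl donor. It was read at 19.4, 20.6 and 18.8 CPM in WT, 15.4, 15.8 and 14.5 in R227Q, and 16.4, 15.6 and 17.8 in H448L. Both variants lay below WT in every library. R227Q was 1.28-fold lower (log2 fold change −0.35 ± 0.09 (SE), edgeR adjusted p = 0.0040), while the H448L difference of −0.22 ± 0.10 did not pass (adjusted p = 0.19). The R227Q call was lost without WT 3 (−0.39, adjusted p = 0.052) or R227Q 1 (−0.32, adjusted p = 0.13). SLC25A26 overlaps LRIG1 on the opposite strand by 9320 bases. SLC25A32, the folate carrier, was read at 10.8, 9.44 and 11.3 CPM in WT, 8.63, 8.66 and 9.39 in R227Q, and 9.84, 9.92 and 8.99 in H448L. R227Q lay below WT in each library and H448L overlapped it, and neither difference passed (−0.29 ± 0.11, edgeR adjusted p = 0.069, and −0.24 ± 0.13, adjusted p = 0.31). Of its 50-base stretches 66.7% are shared in GENCODE v29 with the overlapping gene AC012213.5. Its count is thus uncertain if AC012213.5 was also counted, which is not stated.

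**Figure D4:**
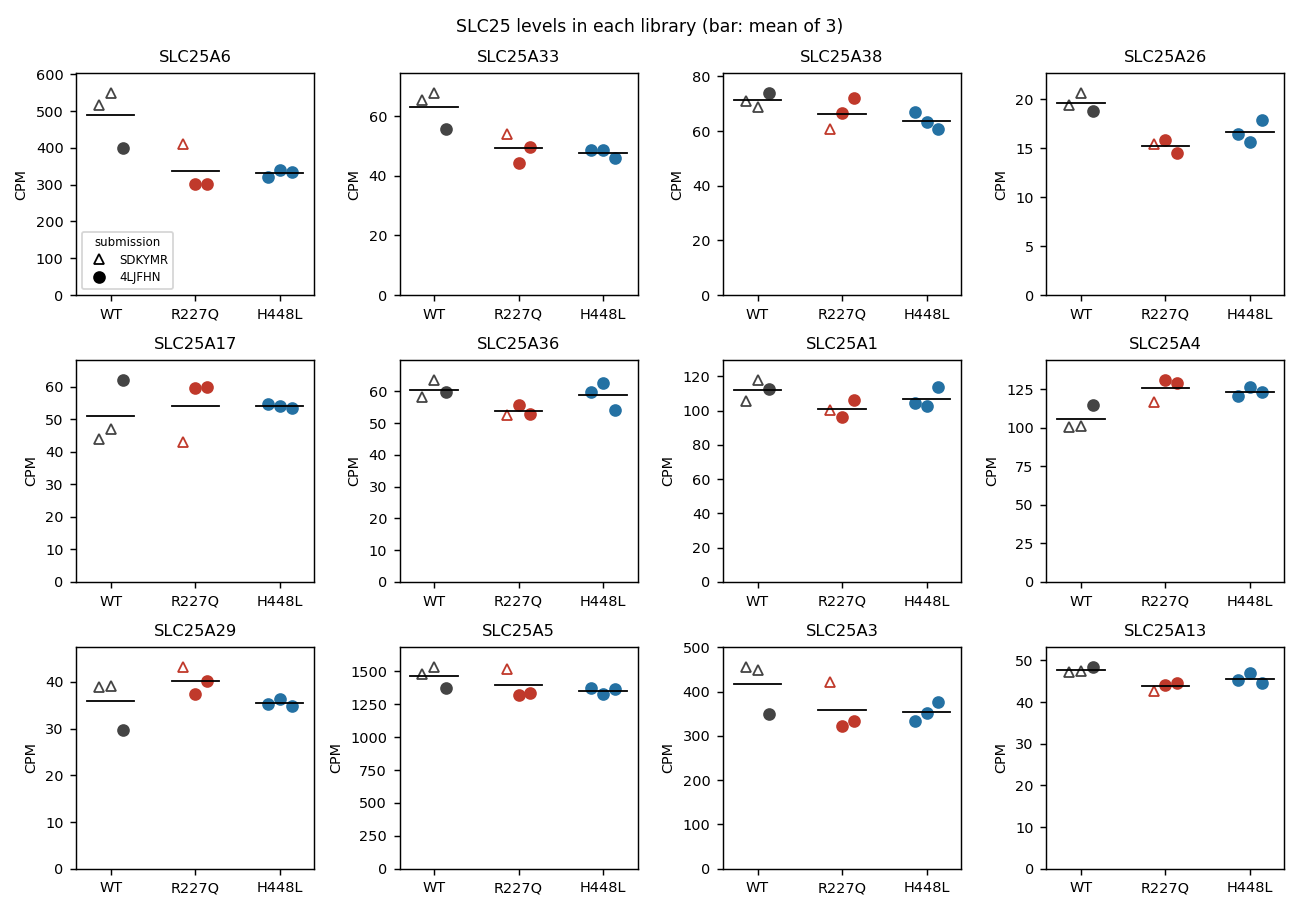
CPM of 12 carriers in each library, with bars at the mean of 3, open triangles for SDKYMR and filled circles for 4LJFHN. Of these 12, SLC25A26, SLC25A33 and SLC25A13 lie lower in every variant library than in every WT library and SLC25A4 higher, whereas SLC25A5 and SLC25A3 follow the submission. Among carriers not drawn, SLC25A16, SLC25A27 and SLC25A35 were higher in every variant library than in every WT library, and did not pass the test. The share of all genes that separate in this way was not counted.

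Of the 9 carriers of folate, nucleotides and cofactors, 8 were tested. In R227Q 2 were lower, SLC25A33 and SLC25A36, and in H448L 2 were lower, SLC25A33 and SLC25A17, beside 9.91% and 4.99% of all genes lower, with median log2 fold changes of −0.15 and −0.09. SLC25A33 and SLC25A36 carry pyrimidine nucleotides, which the matrix needs for mitochondrial DNA and RNA. SLC25A33 was read at 65.5, 67.7 and 55.9 CPM in WT, 54.0, 44.3 and 49.6 in R227Q, and 48.8, 48.9 and 45.9 in H448L. Every variant library lay below every WT library. R227Q was 1.22-fold lower (log2 fold change −0.29 ± 0.06 (SE), edgeR adjusted p = 5.5e-04), but not without R227Q 1 (−0.26, adjusted p = 0.064). H448L was 1.20-fold lower (−0.26 ± 0.07, edgeR adjusted p = 0.015), but not without WT 3 (−0.30, adjusted p = 0.17) or R227Q 1 (−0.24, adjusted p = 0.089). That call was also lost with DESeq2 and with a replicate block, a term for the replicate number (edgeR adjusted p = 0.066). Of its 50-base stretches 20.7% occur in other genes of GENCODE v29, chiefly AC135977.1. Its count is thus uncertain if those genes were also counted, which is not stated.

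SLC25A36 was read at 58.4, 63.5 and 59.9 CPM in WT, 52.5, 55.9 and 52.9 in R227Q, and 59.8, 62.6 and 54.0 in H448L. R227Q lay below WT and H448L spread across it. R227Q was 1.14-fold lower (log2 fold change −0.19 ± 0.06 (SE), edgeR adjusted p = 0.027), and leaving out any of WT 2, WT 3, R227Q 1 and R227Q 3 ended the call (adjusted p = 0.061 to 0.34), as did DESeq2 (0.089) and upper-quartile factors (0.057), while H448L differed by −0.07 ± 0.07 (adjusted p = 0.62). SLC25A17, a peroxisomal carrier of coenzyme A and other nucleotide cofactors, was read at 43.9, 46.8 and 62.0 CPM in WT, 42.9, 59.5 and 59.8 in R227Q, and 54.6, 54.1 and 53.3 in H448L. The 3 libraries of SDKYMR were lowest, WT 3 highest, and H448L below R227Q 2 and 3. H448L was 1.17-fold lower after the submission term (−0.23 ± 0.06, edgeR adjusted p = 0.022), although its mean of 54.0 ± 0.634 CPM (SD, n = 3) is above the pooled WT mean of 50.9 ± 9.70. That call was lost without WT 3, R227Q 1 or H448L 2 (adjusted p = 0.27, 0.09 and 0.058), with DESeq2 and with the replicate block (edgeR adjusted p = 0.073). With no submission term the difference was 0.03. R227Q differed by −0.08 ± 0.05 (adjusted p = 0.38).

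Promoters are shown for the 3 carriers that passed against WT in both variants in the main fit, to set their sequences side by side. The calls of SLC25A38 in R227Q and SLC25A33 in H448L were lost in several alternatives, as given above. Each window runs from 250 bases before to 50 after the RefSeq start in GRCh38.p14, written 5′ to 3′ along the gene. Capitals mark the E-box CACGTG, a palindrome that reads the same on both strands.
SLC25A6 (chrX:1392064-1392363, minus strand): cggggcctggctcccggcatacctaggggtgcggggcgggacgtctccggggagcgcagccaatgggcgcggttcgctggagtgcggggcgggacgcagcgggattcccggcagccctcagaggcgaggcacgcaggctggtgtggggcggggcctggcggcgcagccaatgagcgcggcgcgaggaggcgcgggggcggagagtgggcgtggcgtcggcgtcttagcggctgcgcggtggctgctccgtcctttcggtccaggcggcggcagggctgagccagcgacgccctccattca
SLC25A33 (chr1:9539215-9539514, plus strand): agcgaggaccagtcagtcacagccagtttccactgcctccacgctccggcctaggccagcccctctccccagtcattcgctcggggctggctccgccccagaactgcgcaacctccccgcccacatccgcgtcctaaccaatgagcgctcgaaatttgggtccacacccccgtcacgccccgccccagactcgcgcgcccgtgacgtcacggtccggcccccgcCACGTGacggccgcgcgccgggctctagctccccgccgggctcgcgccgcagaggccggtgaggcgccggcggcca
SLC25A38 (chr3:39383120-39383419, plus strand): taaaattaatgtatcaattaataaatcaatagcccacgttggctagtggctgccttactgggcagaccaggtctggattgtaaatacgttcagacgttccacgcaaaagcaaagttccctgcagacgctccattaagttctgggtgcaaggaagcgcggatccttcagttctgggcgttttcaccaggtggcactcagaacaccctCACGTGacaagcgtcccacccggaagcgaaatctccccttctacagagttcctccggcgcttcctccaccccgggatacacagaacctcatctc
The E-box lies at −26 to −21 from the start in SLC25A33 and at −44 to −39 in SLC25A38, and the SLC25A6 window holds none. That window lies inside SLC25A6 as GENCODE v29 places the gene (1386152 to 1392724). Sequence before the GENCODE start of SLC25A6 was not searched. Of the 48 carriers 40 had a promoter in the table, and 7 of these, or 17.5%, held CACGTG, beside 7.43% of all 27305 promoters of the table. The others were SLC25A13, SLC25A31, SLC25A36, SLC25A46 and SLC25A51, of which SLC25A36 was lower in R227Q and SLC25A31 was not tested. The NRF1 element was in 0 of 40, beside 1.36% of all. The ATF4/CEBP element TGATGNAAN was in 1 of 40, SLC25A11, beside 3.67% of all. Both strands were searched. GC content was 75.7% in the SLC25A6 window, 72.7% in that of SLC25A33 and 51.3% in that of SLC25A38.

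Among citrate, dicarboxylate and oxoglutarate carriers, 1 of 3 tested was lower in R227Q and 0 in H448L, beside 9.91% and 4.99% of all genes. SLC25A1 exports citrate for fatty acid and sterol synthesis. It was read at 105, 118 and 112 CPM in WT, 100.3, 96.6 and 106 in R227Q, and 105, 103 and 114 in H448L. R227Q was 1.12-fold lower (log2 fold change −0.16 ± 0.05 (SE), edgeR adjusted p = 0.035), with R227Q 3 reaching into the WT range. Leaving out any of WT 2, WT 3, R227Q 1 and R227Q 2 ended the call (adjusted p = 0.13 to 0.24), as did DESeq2 (0.081), upper-quartile factors (0.076) and the replicate block (0.12). The H448L difference was −0.10 ± 0.06 (adjusted p = 0.40). The dicarboxylate carrier SLC25A10 differed by 0.13 and 0.20 (edgeR adjusted p = 0.32 and 0.23), and the oxoglutarate carrier SLC25A11, the malate arm of the malate-aspartate shuttle, by −0.02 in both (adjusted p = 0.87 and 0.90). SLC25A10 shares 41.2% of its 50-base stretches with the overlapping gene AC139530.2.

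The amino acid, carnitine and S-adenosylmethionine carriers also hold SLC25A29, which brings basic amino acids such as arginine and lysine into mitochondria. Of the 8 tested, 1 was higher and 2 lower in R227Q, and 1 was lower in H448L, beside 7.5% of all genes higher and 9.91% lower in R227Q and 4.99% lower in H448L. SLC25A29 was read at 38.9, 39.1 and 29.6 CPM in WT, 43.1, 37.4 and 40.1 in R227Q, and 35.4, 36.3 and 34.7 in H448L. WT 3 was the lowest library. R227Q was 1.18-fold higher (log2 fold change 0.24 ± 0.07 (SE), edgeR adjusted p = 0.0095). The difference was 0.13 when SDKYMR was taken alone and 0.38 for 4LJFHN. Without WT 3 it was 0.13 (adjusted p = 0.42), and the call was also lost with DESeq2. H448L differed by 0.14 ± 0.08 (adjusted p = 0.32). SLC25A20, which brings fatty acylcarnitines in for oxidation, differed by −0.03 in R227Q and −0.25 in H448L (edgeR adjusted p = 0.85 and 0.13).

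The iron carriers gave no call, beside 17.4% of all genes called in R227Q and 7.97% in H448L. SLC25A37 (mitoferrin 1) and SLC25A28 (mitoferrin 2) bring iron in for haem and iron-sulfur clusters, and the former is best known from red cell precursors. SLC25A37 was read at 58.2, 55.3 and 63.8 CPM in WT, 56.1, 72.6 and 60.9 in R227Q, and 61.2, 72.0 and 71.7 in H448L. The groups overlapped, and the differences were 0.01 ± 0.07 and 0.05 ± 0.08 (edgeR adjusted p = 0.93 and 0.78). Between submissions SLC25A37 differed by 0.16 ± 0.07 (adjusted p = 0.052), beside the far larger difference of the globin genes. SLC25A28 was read at 9.39, 11.7 and 8.41 CPM in WT, 10.8, 6.84 and 7.37 in R227Q, and 7.66, 6.83 and 8.59 in H448L. The 3 libraries of SDKYMR were highest, and the differences were −0.09 ± 0.12 and −0.05 ± 0.15 (adjusted p = 0.68 and 0.90). Their intervals of −0.34 to 0.16 and −0.37 to 0.27 are wide, at counts of 74 to 150 per library.

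Of the remaining groups, 0 of 2 glutathione carriers, 0 of 4 tested relatives of the uncoupling proteins and 0 of 3 tested carriers of little known function passed in either variant. Over all genes 17.4% passed in R227Q and 7.97% in H448L, so 0 in groups this small says little. Log2 fold changes ran from −0.02 to 0.05 for SLC25A40 and SLC25A39 in R227Q and from −0.12 to −0.004 in H448L. Among the uncoupling relatives they ran from −0.23 (SLC25A30) to 0.31 (SLC25A27) in R227Q and from −0.06 (SLC25A30) to 0.38 (SLC25A35) in H448L, at 2.51 to 22.9 CPM. SLC25A46, an outer membrane protein of mitochondrial dynamics rather than a carrier, differed by 0.06 and 0.01.

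More carriers passed between submissions than between either variant and WT, and the same held over all genes. Between 4LJFHN and SDKYMR 6 carriers were higher and 15 lower, 51.2% of the 41, beside 43.8% of all genes, 20.8% higher and 23% lower (edgeR, same threshold). Without R227Q 1 the count was 11. With protein-coding genes alone in the fit 22 of 41 carriers passed between submissions, beside 49.1% of those genes. The largest differences were SLC25A14, a brain-enriched uncoupling relative (log2 fold change −0.72 ± 0.09), SLC25A30 (−0.64 ± 0.17) and SLC25A28 (−0.51 ± 0.12), and on the other side SLC25A46 (0.49 ± 0.06). SLC25A6 differed by −0.48 ± 0.04 and SLC25A17 by 0.41 ± 0.05 between submissions, more than between either variant and WT. Within submissions the variant difference had the same sign in SDKYMR and 4LJFHN for all 8 carriers that passed in R227Q. The test pools the differences of both submissions, so a shared sign is likely for any carrier that passed and is no separate support. Of the H448L libraries all belong to 4LJFHN, where WT is 1 library.

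**Figure D5:**
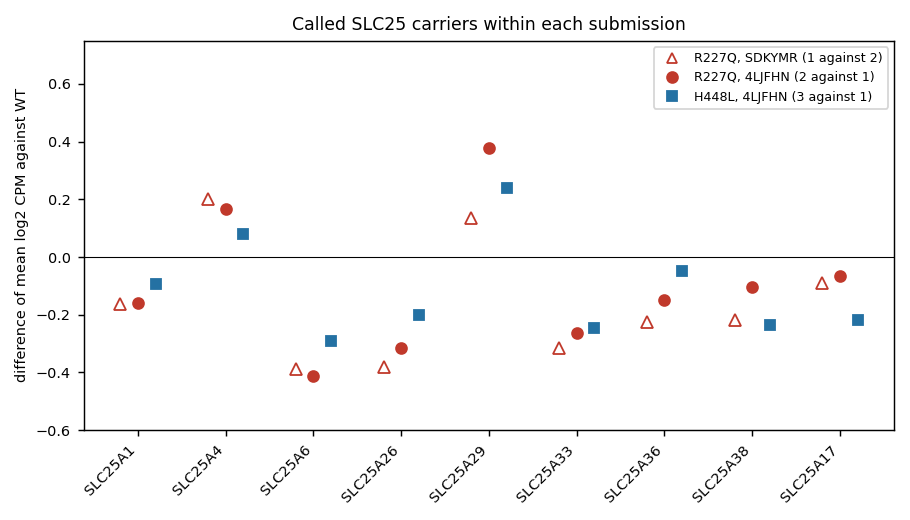
Difference in mean log2 CPM from WT, without a test, for the 9 carriers that passed in at least 1 variant, for R227Q within SDKYMR (1 library against 2), R227Q within 4LJFHN (2 against 1) and H448L within 4LJFHN (3 against 1). The points of a gene lie on 1 side of 0, which the choice of carriers that passed makes likely, and those of SLC25A6 lie between −0.41 and −0.29.

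The path that brings carriers into the inner membrane was set beside them. Of 13 genes of the TOM pore, the small TIM chaperones and the TIM22 complex, 6 were lower in R227Q and 0 higher (46.2% called, beside 17.4% of all genes), with a median log2 fold change of −0.10. These genes are protein-coding, and with protein-coding genes alone in the fit 21.3% of genes passed. TOMM40, the pore itself, was read at 150.6, 144.8 and 210.3 CPM in WT, 122, 177 and 179.9 in R227Q, and 202, 199 and 222 in H448L. R227Q lay below WT within each submission, whereas H448L lay on both sides of WT 3. TOMM40 was lower in R227Q than in WT (log2 fold change −0.26 ± 0.05 (SE), edgeR adjusted p = 1.2e-04). It was higher in H448L than in R227Q (0.21 ± 0.04, edgeR adjusted p = 0.038), which failed without any 1 of WT 1, WT 3 and the R227Q libraries and without H448L 2 or 3. TIMM13, a small TIM chaperone, was lower in R227Q (−0.23 ± 0.04, adjusted p = 3.2e-04), though not without WT 3 (−0.19). Also lower were TOMM70, the receptor for carrier precursors (−0.29, edgeR adjusted p = 9.1e-04), TOMM22 (−0.18, 9.0e-04), TIMM8B (−0.21, 0.0012) and TIMM10 (−0.34, 0.020). For these the R227Q calls were not followed through the alternatives. TIMM10 was read at 15.1 to 28.1 CPM in WT and 10.9 to 19.5 in R227Q, and differed by −0.74 between submissions. In H448L against WT 0 of 13 passed with edgeR (at an unadjusted p under 0.05, 2 were lower), beside 7.97% of all genes. TOMM70 (−0.19) and TOMM22 (−0.13) were among those that did not pass. TOMM70 did pass with every gene that had a count in the fit (edgeR adjusted p = 0.039), with the replicate block (0.043) and without R227Q 3 (0.045).

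Of 17 other mitochondrial transporters tested, MCU, the calcium uniporter, was lower in R227Q (log2 fold change −0.29, edgeR adjusted p = 0.026), and 0 were higher. That call was lost without WT 3 (−0.14, adjusted p = 0.57), WT 1 or R227Q 3 and with DESeq2 (adjusted p = 0.12). The 1 of 17 stands beside 17.4% of all genes called. The uncoupling protein UCP2 differed by 0.17 in R227Q (adjusted p = 0.068) and 0.21 in H448L (adjusted p = 0.10). In R227Q it passed with upper-quartile factors (edgeR adjusted p = 0.037), the replicate block (0.031), protein-coding genes alone (0.035) and without R227Q 2 (0.019) or H448L 3 (0.05). In H448L it passed with the replicate block (0.045). In H448L 1 was higher, the sideroflexin SFXN4 (0.24, adjusted p = 0.037), which failed when any library other than H448L 1 or H448L 2 was left out, and with DESeq2, beside 2.97% of all genes higher. The serine transporter SFXN1 was read at 75.1 to 91.7 CPM in WT, 72.8 to 96.4 in R227Q and 90.5 to 99.9 in H448L. It followed the submission (log2 difference 0.28 for 4LJFHN against SDKYMR), and WT 3 was at 91.7. Neither variant differed from WT by the test (−0.01 and −0.02, edgeR adjusted p = 0.91 and 0.90). Of 10 shuttle and citrate enzymes, IDH2 (0.25, edgeR adjusted p = 0.0037) was higher and ME2 (−0.18, adjusted p = 0.026) lower in R227Q. That is 20% called, beside 17.4% of all genes and 21.3% of protein-coding genes when fitted alone. The calls of IDH2 and ME2 were both lost without WT 3 or R227Q 1, and that of ME2 also without WT 1 and with DESeq2. In H448L 0 of 10 passed with edgeR (at an unadjusted p under 0.05, 1 was higher), beside 7.97% of all genes. MDH1 (0.14) and MDH2 (0.06) were among those that did not pass. Against R227Q, H448L values of MDH1 (0.20), ME2 (0.17), SFXN4 (0.12), VDAC3 (0.11) and TIMM13 (0.17) did not pass with edgeR, though TIMM13 did with DESeq2 (adjusted p = 0.028), the replicate block (0.046) and protein-coding genes alone (0.045).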

How the data were processed

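Poly-A mRNA of 9 Hap1 libraries, 3 per SARS2 genotype, was sequenced by a commercial service from cell lysates, per the labels' protocols. Per the submitters' processing notes, the build was GRCh38. The aligner, the counting program, its annotation and the use of strand are not named in any source used here. The authors deposited estimated counts per gene, not normalized, and CPM, per the file headers, in 1 table per submission. CPM were checked to be the counts scaled to 1000000 per library. Part of the counts are fractions, so genes that share sequence are uncertain, and counts were rounded before testing.

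Library totals were 9900892 to 12991050, and 1 count is 0.0770 to 0.101 CPM. Of 78986 rows, 92 were spike-in controls and were left out. Genes were kept by filterByExpr with the groups (16908), scaled with TMM, and fitted with group and submission on all 9 libraries with edgeR 4.0.16 in R 4.3.3 (5 residual degrees of freedom). The quasi-likelihood test was two-sided, with Benjamini-Hochberg adjustment over all genes and a threshold of 0.05. Standard errors were obtained as the ratio of the log2 fold change to the root of F. Values for 1 submission taken alone are differences between group means of log2 CPM (prior count 2). DESeq2 1.42.0 and limma 3.58.1 served as alternatives, beside other factors, filters, samples and terms. Tests were tried on simulated data first.

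Lengths, positions, overlaps and shared 50-base stretches came from GENCODE v29, and the length is that of the longest principal transcript. The annotation behind the counts is not named and may differ from it. Promoters are RefSeq's, on GRCh38.p14. The members and lists were chosen with earlier results of these data known. Named were every carrier that passed in a comparison of groups, 12 carriers of the listed substrates, carriers that failed the filter, the highest and lowest levels, and the 2 related genes with the smallest p per list and comparison. SLC25A10, SLC25A11, SLC25A14, SLC25A20, SLC25A30, SLC25A41, SFXN1, TIMM8B and TIMM10 and others outside that rule were named after their values were seen. Some genes of the related and marker lists are not reported here, and list counts and sums leave them out. Comparisons with WT share the WT libraries. Protein sequences were not used here.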

Additional observations from a re-analysis of the deposited data

How the results depend on the processing

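The number of carriers that passed in R227Q against WT was 8 with limma-voom and RLE factors, 5 with upper-quartile factors, 4 with DESeq2, 2 in 4LJFHN alone and 0 with no submission term. Leaving out 1 library gave 2 to 9. In H448L against WT it was 2 with DESeq2, 2 with a replicate block, 1 in 4LJFHN alone, 0 with no submission term and 1 to 4 with 1 library left out. In H448L against R227Q it was 0 in every setting, and between submissions 11 to 22 with 1 library left out. The cause was not tested, though fits on fewer libraries hold less data. Deviations from the group means followed the submission in WT and R227Q, so they cannot show whether replicate numbers pair the libraries: of 9 pairs with the same number 2 had a correlation above 0.1 (−0.564 to 0.66), both within 1 submission, and 3 of 9 libraries correlated best with their own number. The replicate block gave 7, 2 and 0 carriers in the 3 comparisons of groups, and 17 between submissions. Summing both SLC25A6 entries, an alternative added after seeing the data, gave 8, 4 and 0.

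Over 61 differences of named genes in up to 21 settings, 1129 of 1281 values kept their direction and their side of the threshold, 103 lost the call, 13 gained it and 36 changed sign. With no submission term the sign changed for SLC25A17 in R227Q against WT (0.062) and, in H448L against WT, for SLC25A22 (0.076), SLC25A29 (−0.077), SLC25A17 (0.035), MDH1 (−0.39). In H448L against R227Q it changed for SLC25A6 (−0.062), SLC25A33 (−0.072), MDH1 (−0.090), VDAC3 (−0.21). In 4LJFHN alone SLC25A22 was 0.099 in R227Q and 0.12 in H448L. In H448L, upper-quartile factors gave 0.0099 for SLC25A3 and 0.012 for SLC25A22, protein-coding genes alone 0.0034 and 0.0056, and the replicate block 0.049 for SLC25A3 and 0.090 for SLC25A28. Leaving out 1 library gave differences of both signs. In R227Q against WT they were −0.27 to 0.10 for SLC25A22, −0.25 to 0.020 for SLC25A28, −0.043 to 0.059 for SLC25A37, −0.061 to 0.00094 for SLC25A5. In H448L against WT they were −0.086 to 0.0060 for SLC25A12, −0.25 to 0.12 for SLC25A22, −0.16 to 0.12 for SLC25A28, −0.0082 to 0.24 for SLC25A29, −0.051 to 0.027 for SLC25A3, −0.0079 to 0.12 for SLC25A37, −0.046 to 0.016 for SLC25A5. In H448L against R227Q they were −0.029 to 0.097 for SLC25A33. Of these, SLC25A17 in H448L against WT was the only difference that had passed the test.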
